A study of Homo sapiens with 12 samples.

Results

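The subject is the set of places in the HepG2 genome where a region of H3K27ac and a region of H3K4me3 share at least 1 bp, and how the 2 marks compare inside each such pair. HepG2 is an established human line from a hepatocellular carcinoma, grown untreated. Chromatin immunoprecipitation and sequencing (ChIP-seq), which recovers DNA bound to a chosen histone modification, gave 12 libraries, 3 each for H3K27ac, H3K4me3, H3K4me1 and a control that the titles call input while the antibody label names anti-mouse IgG. Each immunoprecipitation took 300 ng of sheared DNA, reads were paired and 51 bp long, and the labels do not say whether the 3 libraries of a group came from separate cultures. The values analysed were 1 pooled list of enriched regions (peaks) per mark, so there was no spread between cultures to test against, the depth was unknown, and nothing was measured here from the control libraries. The liver origin of the cells was not checked against marker genes, for want of a gene annotation of the files' build. Intervals are 95% Wilson intervals and cover counting error only, and standard deviations (SD) are over 23 chromosomes (1 to 22 and X), which are not replicates.

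Both marks sit on the tail of histone H3. Acetylation of lysine 27 is placed by the p300 and CBP acetyltransferases and marks active promoters and active enhancers alike. Trimethylation of lysine 4 is placed by SET1 and MLL enzymes and is concentrated just around the start sites of transcribed or poised genes, many of them in CpG islands. Monomethylation of the same lysine is typical of enhancers and of the outer flanks of promoters, where it borders the trimethylated core. The start site itself is often depleted of nucleosomes, with marked nucleosomes to either side. A region carrying both H3K27ac and H3K4me3 is therefore usually read as an active promoter, but no gene positions of the files' genome build were used here, and the regions below are described by their marks and positions only.

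There were 21902 pairs. They took in 21074 of 66513 H3K27ac regions (31.7%) and 18955 of 24446 H3K4me3 regions (77.5%), out of 273551 regions in the 3 lists together. In 14856 pairs (67.8%) a single H3K27ac region met a single H3K4me3 region and neither touched another. These 1-to-1 pairs are the basis of what follows unless another set is named. A further 5389 pairs came from 2553 H3K4me3 regions that each met several H3K27ac regions, 1339 came from 623 H3K27ac regions that each met several H3K4me3 regions, and 318 pairs joined several of each. The cut of 1 bp left few borderline cases. Only 150 pairs (0.685%) shared 100 bp or less, and their median percentile of strength was 21.2 for H3K27ac and 73.1 for H3K4me3. Just outside the cut, 272 unpaired H3K27ac regions and 15 unpaired H3K4me3 regions lay within 100 bp of the other mark, with median percentiles of 23.6 and 10.5.

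Paired regions were stronger and wider than unpaired regions of the same list. Strength is the signal value deposited for each peak, which is the authors' own and was used only to rank peaks within a list, from percentile 0 (weakest) to 100. Paired H3K27ac regions had a median percentile of 81.5 and a median width of 1817 bp, against 37.5 and 514 bp for unpaired ones. Paired H3K4me3 regions had a median percentile of 61.1 and a median width of 2046 bp, against 25.5 and 670 bp. The strongest quartile of the H3K27ac list supplied 61.8% of the paired and 7.92% of the unpaired H3K27ac regions. Of the 5491 unpaired H3K4me3 regions, 1 was in the strongest quartile of its list (0.0182%, interval 0.00321 to 0.103%). A wider region has more chances of touching another, so width and pairing cannot be told apart here.

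H3K4me1, which had no part in choosing the pairs, touched most regions of both kinds. It shared a base with 18385 of the paired H3K27ac regions (87.2%) where the background over the whole H3K27ac list was 87.4%, so contact with H3K4me1 did not set the paired regions apart. For H3K4me3 it touched 18106 paired regions (95.5%, interval 95.2 to 95.8%) and 4567 unpaired ones (83.2%, interval 82.2 to 84.1%). The background over the whole H3K4me3 list was 92.7%, but paired regions were 77.5% of that list and so largely set it. Paired H3K4me3 regions thus touched H3K4me1 more often than unpaired ones. They were also wider, and the part of width in this contrast was not tested. The summit, the base at which the authors' caller placed the highest enrichment, separated the groups more. It lay inside an H3K4me1 region in 38.1% of paired H3K27ac regions (SD 5.56 over chromosomes) and 82.9% of unpaired ones (SD 3.22). The same share was 36.2% for paired and 55.6% for unpaired H3K4me3 regions.

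Pairs strong in 1 mark tended to be strong in the other, but loosely. Spearman's rho between the signal values was 0.60 over 14856 1-to-1 pairs, and it ran from 0.53 to 0.64 when each chromosome was taken alone (SD 0.03). With the deposited −log10 p-value as the measure of strength rho was 0.65, and over all 21902 pairs it was 0.37. These are descriptions of pooled lists, in which strong peaks are also wide peaks: rho between strength and width was 0.75 within H3K27ac and 0.84 within H3K4me3. With both widths held, the partial rank correlation of the strengths was 0.43.

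Among pairs of similar H3K4me3 strength the relation was weaker. A narrower range of a measure can lower rho, and its part here was not tested. The 1-to-1 pairs were ranked again among themselves and cut into quartiles of 3714 by each mark. Within the weakest quartile of H3K4me3, rho between the marks was −0.03, and in the next 3 quartiles it was 0.19, 0.20 and 0.24. From the weakest to the strongest H3K4me3 quartile the median H3K4me3 signal went from 2.67 through 12.6 and 37.1 to 54.6. The median H3K27ac signal over the same quartiles was 6.49, 8.43, 19.8 and 27.9. In absolute signal value both marks thus had their largest step between quartiles 2 and 3.

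Both marks fell in the same quartile in 6211 pairs (41.8%), and in the same or a neighbouring quartile in 12850 (86.5%). Only 277 pairs (1.86%) sat at opposite ends. Those were uneven: 231 pairs joined the weakest H3K4me3 with the strongest H3K27ac, and 46 joined the strongest H3K4me3 with the weakest H3K27ac. The median gap between the 2 ranks of a pair was 16.9 percentile points, with an interquartile range of 7.77 to 29.2.

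**Figure D1:**
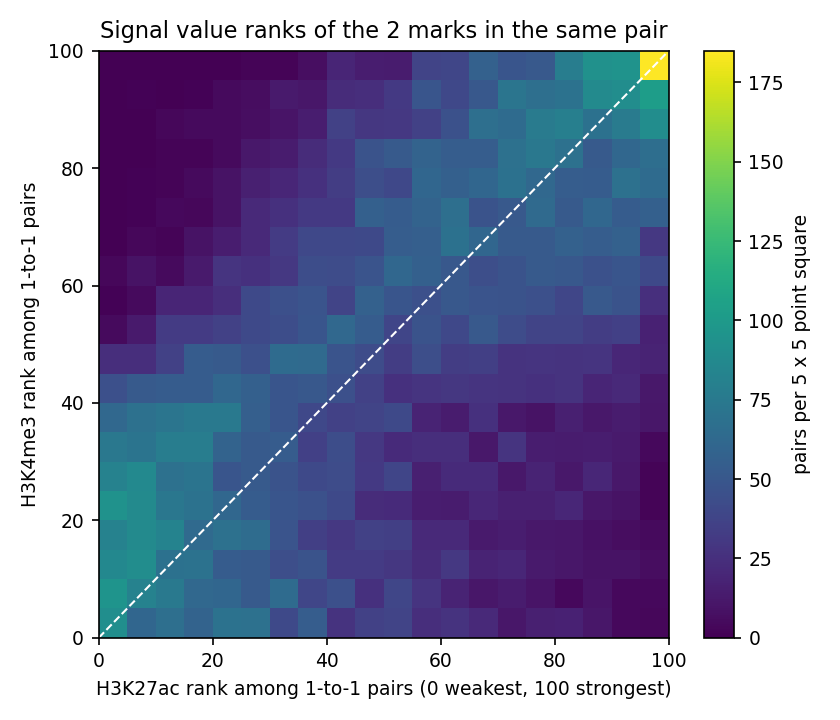
Number of 1-to-1 pairs in each square of 5 by 5 percentile points, by the rank of H3K27ac (x axis) and of H3K4me3 (y axis) among the 14856 1-to-1 pairs; brighter squares hold more pairs and the dashed line marks equal ranks. The brightest square is at the strong end of both marks, and the corner of strong H3K27ac with weak H3K4me3, lower right, holds more pairs (231 in opposite quartiles) than the upper left corner (46).

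Pairs in which 1 mark led by 50 points or more differed in shape as well as in strength. H3K27ac led in 629 pairs (4.23%, interval 3.92 to 4.57%). In these a broad H3K27ac region, 4247 bp at the median, enclosed a short H3K4me3 region of 791 bp. H3K27ac contained H3K4me3 in 614 of the 629 (97.6%) and ran past it by a median of 3326 bp. H3K4me3 led in 209 pairs (1.41%, interval 1.23 to 1.61%), where its region was 2165 bp wide at the median and that of H3K27ac 1280 bp. In 183 of these (87.6%) H3K4me3 contained H3K27ac, and it ran past by a median of 863 bp. Because strength and width go together within each list, the shapes and the leads are not separate observations: rho between the rank lead of H3K27ac and the width ratio was 0.68.

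H3K4me1 gave a reading that the ranks had not used. Where H3K27ac led, H3K4me1 covered the H3K4me3 summit in 577 of 629 pairs (91.7%, interval 89.3 to 93.6%) and 86.6% of the bases the 2 marks shared. Where H3K4me3 led, it covered the H3K4me3 summit in 9 of 209 (4.31%, interval 2.28 to 7.98%) and 24.8% of the shared bases. In the 4675 pairs whose ranks were within 10 points the values lay between, at 36.3% of H3K4me3 summits and 39.1% of shared bases. The groups also differed in H3K4me3 strength itself, so the contrast is not one of lead alone. The median H3K4me3 percentile was 18.5 where H3K27ac led, 63.0 with close ranks and 89.4 where H3K4me3 led. Summit distance did not follow the same order: summits were within 200 bp in 65.7% of the pairs led by H3K27ac, 79.4% of those led by H3K4me3 and 66.8% of those with close ranks.

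H3K4me1 at the summit differed with the strength of H3K4me3 at every level of H3K27ac. In the weakest H3K4me3 quartile, H3K4me1 covered the H3K4me3 summit in 85.7% of the pairs with the weakest H3K27ac and in 97.8% of those with the strongest. In quartile 2 of H3K4me3 the same 2 values were 45.3% and 53.8%. In quartile 3 they were 7.59% and 6.32%, with overlapping intervals (5.06 to 11.2% and 5.05 to 7.89%). In the strongest H3K4me3 quartile they were 13.0%, over 46 pairs with an interval of 6.12 to 25.7%, and 2.38%, over 1931 pairs with an interval of 1.79 to 3.16%. In the 2 weaker H3K4me3 quartiles the share was thus higher with the strongest than with the weakest H3K27ac. In the strongest H3K4me3 quartile only the 46 pairs with the weakest H3K27ac stood apart. H3K27ac quartiles 2 and 3 had 2.68% and 2.08% there, near the 2.38% of the strongest, so no steady fall with H3K27ac was seen. With the weakest H3K27ac the share ran from 85.7% to 13.0% between the weakest and the strongest H3K4me3, and with the strongest H3K27ac from 97.8% to 2.38%.

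The pairs with the highest rank in both marks show the strong end. All positions are on hg19, the build named in the submitters' processing notes, and count from 1. On chromosome 2, H3K27ac at chr2:47398363-47404764 had a signal value of 86.0 and H3K4me3 at chr2:47400393-47404724 one of 89.1, both above percentile 99. H3K27ac reached 2030 bp further on the left and 40 bp further on the right, the summits were 495 bp apart, and H3K4me1 covered 100% of the H3K27ac-only bases but 30.4% of the shared ones. On chromosome 22, H3K27ac at chr22:39914262-39919859 (signal value 73.6) also enclosed H3K4me3, at chr22:39914628-39919296 (92.3), with summits 400 bp apart. On chromosome 9 the nesting was the other way round: H3K27ac at chr9:135819015-135820925 (76.1) lay inside H3K4me3 at chr9:135818609-135820930 (79.5), and the summits were 423 bp apart. In all 3 the summits were farther apart than the upper quartile of all 1-to-1 pairs, 365 bp.

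The largest leads of H3K27ac were broad domains with a small H3K4me3 region near the middle or toward 1 end. On chromosome 2, H3K27ac at chr2:47256263-47272632, 16370 bp wide with a signal value of 56.2, enclosed H3K4me3 at chr2:47260868-47261394, 527 bp wide with a signal value of 1.96. H3K4me1 covered 98.1% of its H3K27ac-only bases and 100% of the shared ones. On chromosome 17, H3K27ac at chr17:16187941-16195582 (52.7) enclosed H3K4me3 at chr17:16189574-16190033 (1.94), with summits 62 bp apart. On chromosome 1, H3K27ac at chr1:235089460-235102167 (55.9) enclosed H3K4me3 at chr1:235096752-235097157 (2.02), with summits 3282 bp apart. In each of the 3 the H3K4me3 region was wholly under H3K4me1.

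The largest leads of H3K4me3 were H3K4me3 regions of 1368 to 3691 bp with a narrower patch of H3K27ac inside. On chromosome 1, H3K4me3 at chr1:17337050-17339134 had a signal value of 60.1 and enclosed H3K27ac at chr1:17337901-17338398, 498 bp wide with a signal value of 2.80. The summits were 9 bp apart, and H3K4me1 covered 82.7% of the H3K4me3-only bases and 24.1% of the shared ones. Also on chromosome 1, H3K4me3 at chr1:9881879-9885569 (58.5) enclosed H3K27ac at chr1:9882908-9884066 (4.47). On chromosome 14, H3K4me3 at chr14:21077544-21078911 (52.9) enclosed H3K27ac at chr14:21077719-21078237 (3.33). In the last 2 pairs H3K4me1 covered 0% of the shared bases, and 60.0% and 54.3% of the H3K4me3-only bases.

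In width the 2 marks were close to even. The median H3K27ac region of a 1-to-1 pair was 2082 bp wide (interquartile range 1190 to 3229) and the median H3K4me3 region 1933 bp (987 to 2828). Taken pair by pair, the median log2 ratio of H3K27ac to H3K4me3 width was −0.0076, with an interquartile range of −0.37 to 0.55. H3K27ac was wider in 7339 pairs (49.4%, interval 48.6 to 50.2%, SD 5.26), from 39.9% on chromosome X to 59.3% on chromosome 22. Over all pair types it was wider in 41.3%, with a median log2 ratio of −0.15, and among the stronger 50% of each list in 37.0%. Among the 1-to-1 pairs an even median hid a lopsided spread. H3K27ac was at least 2-fold wider in 2539 pairs (17.1%), and H3K4me3 was at least 2-fold wider in 1265 (8.52%). Over all pair types the order was reversed, with H3K27ac at least 2-fold wider in 3834 pairs (17.5%) and H3K4me3 in 4932 (22.5%).

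The balance depended on how strong H3K4me3 was. In its weakest quartile the median widths were 1468.5 bp for H3K27ac and 632 bp for H3K4me3, a median log2 ratio of 1.10, and H3K27ac was wider in 78.5% of pairs. In quartiles 2, 3 and 4 the log2 ratio was −0.12, −0.14 and −0.07, and H3K27ac was wider in 43.7%, 33.7% and 41.7%. Cut by H3K27ac strength instead, the ratio was −0.43 in the weakest quartile and 0.05, 0.03 and 0.08 in the next 3. The widest regions of both marks that were in pairs belonged to the same pair, on chromosome 7: H3K27ac at chr7:130577097-130612127 spanned 35031 bp and H3K4me3 at chr7:130591562-130604705 spanned 13144 bp. Their signal values were 21.6 and 30.1, at percentiles 89.0 and 63.1 of their full lists.

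Nesting was the rule. H3K4me3 contained H3K27ac in 5678 pairs (38.2%, SD 4.76), and H3K27ac contained H3K4me3 in 4855 (32.7%, SD 4.35). In the remaining pairs each mark stuck out at 1 end: H3K27ac to the left in 2152 (14.5%) and to the right in 2171 (14.6%), left being toward the lower position. With only the stronger 50% of each list, H3K27ac contained H3K4me3 in 17.6% of pairs and H3K4me3 contained H3K27ac in 47.7%. Edges rarely coincided exactly, at 32 of 29712 sides, but 7044 sides (23.7%) had the 2 edges within 100 bp.

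Which mark was on the outside changed with strength. From the weakest to the strongest H3K4me3 quartile, H3K27ac contained H3K4me3 in 67.2%, 29.2%, 15.1% and 19.2% of pairs. H3K4me3 contained H3K27ac in 12.7%, 46.7%, 51.3% and 42.2%. Staggered pairs made up 20.2%, 24.0%, 33.6% and 38.6%, so offset pairs were most frequent where H3K4me3 was strongest. By H3K27ac quartile, H3K4me3 contained H3K27ac in 53.5%, 38.6%, 34.5% and 26.2%.

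**Figure D2:**
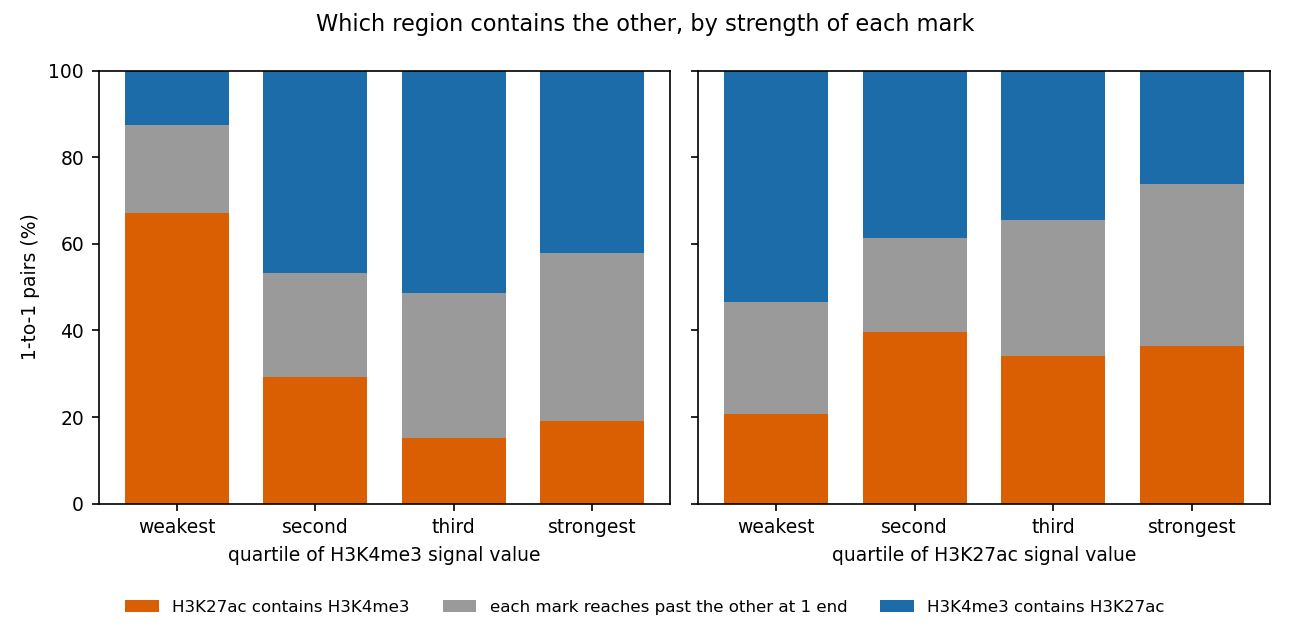
Percent of 1-to-1 pairs (y axis) in which H3K27ac contains H3K4me3 (orange), each mark reaches past the other at 1 end (grey) or H3K4me3 contains H3K27ac (blue), by quartile of H3K4me3 signal value (left) and of H3K27ac signal value (right), 3714 pairs per bar. H3K27ac contains H3K4me3 in 67.2% of pairs in the weakest H3K4me3 quartile and 19.2% in the strongest, and the grey class is largest in the strongest quartile of either mark.

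H3K4me3 ran past H3K27ac slightly more often, and H3K27ac ran past H3K4me3 much farther. Of 29712 sides, H3K4me3 was the longer mark at 15662 (52.7%) and H3K27ac at 14018 (47.2%). Where it was the longer, H3K27ac reached a median of 383 bp further (interquartile range 132 to 918), and H3K4me3 a median of 204 bp (94 to 388). H3K27ac was 1000 bp or more past at 3167 sides (10.7%) and 5000 bp or more at 142. H3K4me3 was 1000 bp or more past at 318 sides (1.07%) and 5000 bp or more at 1.

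Per pair, the median was 119.5 bp of H3K27ac past H3K4me3 and 139 bp of H3K4me3 past H3K27ac. These medians were 22 and 304 bp with the stronger 50% of each list, and the H3K4me3 median was 301 bp over all pair types.

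Summed over the 1-to-1 pairs, H3K27ac covered 36.5 Mb and H3K4me3 30.5 Mb, of which 26.2 Mb was shared. H3K27ac alone held 10.3 Mb and H3K4me3 alone 4.39 Mb, so that 71.7% of H3K27ac bases and 85.6% of H3K4me3 bases were shared. The H3K27ac-only bases were concentrated: the 1486 pairs with the most, each with 2105 bp or more, held 56.8% of them. The 1486 pairs with the most H3K4me3-only bases, each with 823 bp or more, held 40.1% of those. Over all pair types 72.1% of H3K27ac bases and 85.4% of H3K4me3 bases were shared.

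Most pairs with an H3K27ac extension of 1000 bp or more reached that length on 1 side only. H3K27ac was 1000 bp or more past H3K4me3 on both sides in 715 pairs (4.81%) and on 1 side only in 1737 (11.7%). Left and right were used alike, with 885 of the 1737 (50.9%) on the left. On the shorter side of these pairs H3K27ac ended a median of 301 bp past H3K4me3, and in 428 (24.6%) it ended inside H3K4me3. Over all 1-to-1 pairs rho between the left and the right extension was 0.55, so a longer extension on 1 side tended to go with a longer one on the other.

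In the 1-sided pairs the place of the H3K27ac summit was counted at 2 ranges of summit distance. With the summits 300 bp or more apart, the H3K27ac summit lay toward the long side in 524 of 704 pairs (74.4%, interval 71.1 to 77.5%). With the summits within 200 bp it did so in 481 of 971 (49.5%, interval 46.4 to 52.7%). A distant summit has more room on the side where H3K27ac is longer, so the first value is set in part by how these pairs were chosen and shows no preference by itself. The H3K4me3 summit was the nearer to its own edge on the long side in 854 of 1737 (49.2%), so its place within its region did not follow the direction of the extension.

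The pairs with the longest H3K27ac extension were domains of 24728 to 35031 bp under almost continuous H3K4me1. On chromosome 20, H3K27ac at chr20:30281090-30311869 ran 22508 bp to the left of H3K4me3 at chr20:30303598-30311940 and stopped 71 bp short of it on the right. H3K4me1 covered 98.7% of the H3K27ac-only bases and 60.3% of the shared ones. The chromosome 7 pair of widest regions, named above, had 14465 bp of H3K27ac past H3K4me3 on the left and 7422 bp on the right, with H3K4me1 over 97.8% of them. On chromosome 2, H3K27ac at chr2:20775933-20800660 (signal value 55.4) ran 14361 bp to the left and 7482 bp to the right of H3K4me3 at chr2:20790294-20793178 (14.9), and there H3K4me1 also covered 99.2% of the shared bases.

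H3K4me3 extended far past H3K27ac in few pairs, and the 3 longest joined H3K27ac of low rank among the 1-to-1 pairs (14.6, 16.8 and 1.99) to H3K4me3 of higher rank (38.7, 42.9 and 37.9). Within the full lists the first 2 H3K27ac regions stood at percentiles 57.8 and 60.9, above their H3K4me3 partners at 50.4 and 54.2. On chromosome 17, H3K27ac at chr17:8023677-8024283 (signal value 3.91) sat at the left end of H3K4me3 at chr17:8023623-8030898 (13.6), which ran 6615 bp further to the right, with the summits 5759 bp apart. On chromosome 5, H3K4me3 at chr5:141253917-141258890 (18.1) ran 4329 bp to the right of H3K27ac at chr5:141253848-141254561 (4.37). On chromosome 11, H3K4me3 at chr11:46410732-46414919 (12.9) ran 2944 bp to the left and 985 bp to the right of H3K27ac at chr11:46413676-46413934 (1.94). H3K4me1 covered 68.7%, 87.3% and 70.2% of the H3K4me3-only bases of these pairs.

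**Figure D3:**
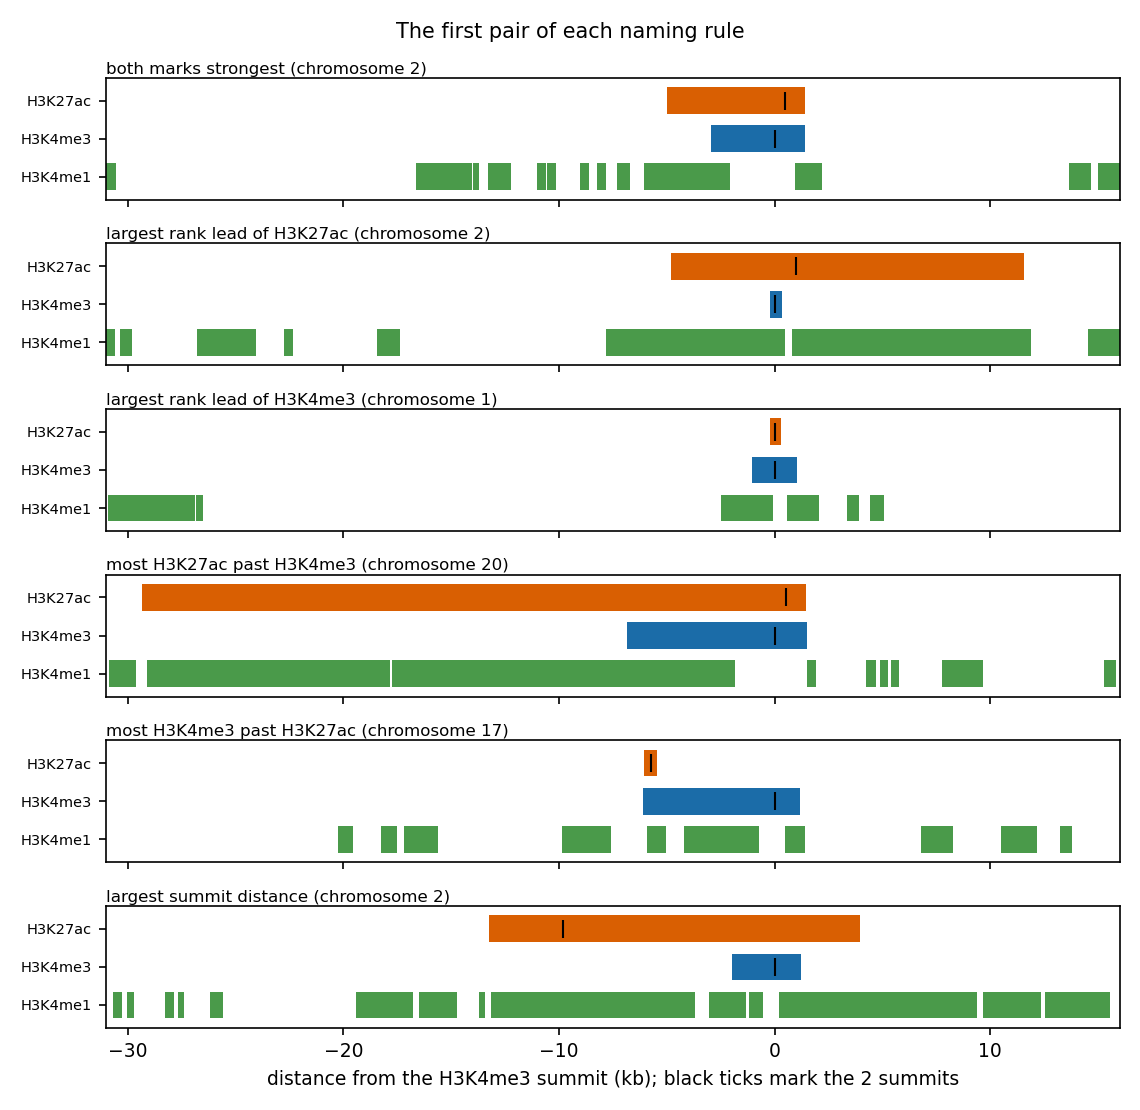
Regions of the 3 marks around the first pair named by each rule, drawn to scale against distance from the H3K4me3 summit in kb (x axis); orange bars are the H3K27ac region and blue bars the H3K4me3 region of the pair, green bars are all H3K4me1 regions in the window, and black ticks mark the 2 summits. H3K4me1 fills the H3K27ac-only stretches, as over 98.7% of the 22508 bp on chromosome 20, and is interrupted over the strong H3K4me3 of the first pair.

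H3K4me1 separated the parts of a pair. It covered 41.2% of the bases shared by H3K27ac and H3K4me3 (SD 6.64, from 30.1 to 53.0% over chromosomes), 91.1% of the H3K27ac-only bases (SD 3.24, 80.7 to 95.1%) and 64.1% of the H3K4me3-only bases (SD 6.26). In the 500 bp outside both marks on each side it covered 61.3% (SD 5.92). For comparison, H3K4me1 covered 84.8% of the bases of unpaired H3K27ac regions and 58.8% of those of unpaired H3K4me3 regions. The levels depended on how long a list of H3K4me1 was used. With the stronger 50% of every list the shared, H3K27ac-only and H3K4me3-only shares were 24.8%, 84.0% and 41.6%. With the strongest 24446 regions of every list they were 14.5%, 56.2% and 10.9%, so that the H3K27ac-only bases stayed highest and the other 2 parts changed places.

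The H3K27ac-only share hardly moved with the strength of H3K4me3, and the shared part moved a great deal. From the weakest to the strongest H3K4me3 quartile, H3K4me1 covered 91.2%, 91.4%, 90.0% and 91.4% of H3K27ac-only bases. It covered 88.7%, 59.3%, 31.6% and 30.1% of shared bases. At the H3K4me3 summit itself the share was 88.6%, 48.0%, 7.0% and 2.45%. At the H3K27ac summit it was 90.4%, 48.8%, 7.92% and 4.58%.

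The comparison of H3K27ac with bare flank held at a fixed distance. Positions 500 bp past an H3K4me3 edge were split by whether they lay inside any H3K27ac region, of the pair or a neighbouring one. H3K4me1 covered 92.8% of the 6964 inside (SD 3.20) and 52.0% of the 21842 outside (SD 5.93). At 1000 bp the shares were 91.3% of 4467 and 34.3% of 24213, and at 250 bp they were 91.0% and 63.8%. The pair's own H3K27ac reached 1000 bp or more past at only 3167 sides, so part of the 4467 lay in other H3K27ac regions. Inside H3K27ac the share thus stayed between 91.0% and 92.8% at the 3 distances, and outside it was lower with each step.

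Along the edges of H3K4me3 regions of 2000 bp or more, H3K4me1 was more frequent on both sides of the edge where H3K27ac reached further out. At 970 edges H3K27ac ran 1000 bp or more past, at 4683 it ran past by less, and at 8608 it stopped short. At 500 bp inside the edge the H3K4me1 share was 80.4%, 59.0% and 43.3% in that order. At the edge it was 89.7%, 87.1% and 72.5%, and at 500 bp outside it was 96.7%, 67.1% and 50.9%. At 2000 bp outside it was 68.7%, 31.8% and 20.0%.

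**Figure D4:**
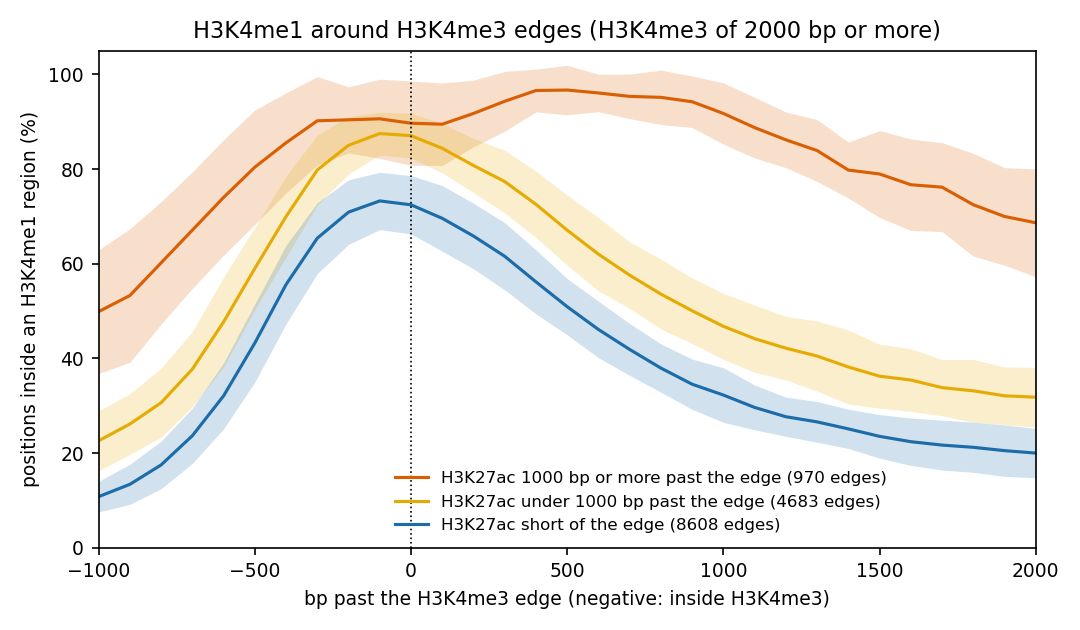
Percent of edges with H3K4me1 (y axis) by distance from the H3K4me3 edge in bp (x axis, negative inside H3K4me3), for H3K4me3 regions of 2000 bp or more in 1-to-1 pairs, split by where H3K27ac ends; shading is 1 SD over 23 chromosomes. The line for H3K27ac of 1000 bp or more past the edge, whose positions up to 1000 bp outside all lie inside H3K27ac, is the highest throughout, at 96.7% 500 bp outside against 50.9% where H3K27ac stopped short.

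Staggered pairs allow the 2 ends of the same pair to be set against each other. Of 4323 such pairs, the H3K27ac-only end had the higher H3K4me1 share in 1551 (35.9%, SD 3.72) and the H3K4me3-only end in 662 (15.3%, SD 4.29). In the other 2110 (48.8%) the ends were equal, in 1946 because both were wholly under H3K4me1 and in 164 because both had none. The ends were short, 194 bp and 134 bp at the median.

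The summits of the 2 marks were mostly near each other, with a long tail of wider spacings. The median distance was 96 bp (interquartile range 42 to 365, SD 6.64), and 10157 pairs (68.4%, SD 1.72) had summits within 200 bp. A further 602 pairs (4.05%) were over 200 and under 300 bp apart, and 3159 (21.3%, SD 1.85) were 300 to 800 bp apart, a window 5 times as wide, so these shares are not densities. In bins of equal width, 25 bp, the bin from 300 to 324 bp was the emptiest between 100 and 500 bp with 120 pairs, and the bin from 450 to 474 bp held 237. In the strongest H3K4me3 quartile these bins held 16 and 68 pairs. In the weakest quartile no such low was seen: the 2 bins held 47 and 54, the bin from 375 to 399 bp held 39 and that from 475 to 499 bp held 36. The H3K27ac summit was inside H3K4me3 in 95.9% of pairs and the H3K4me3 summit inside H3K27ac in 98.4%.

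The spacing went with strength and width. In the 2 weaker H3K4me3 quartiles the fullest bin was 0 to 24 bp, with 820 and 899 pairs. In the 2 stronger quartiles it was 75 to 99 bp, with 422 and 573 pairs against 405 and 215 at 0 to 24 bp. The share of pairs 300 to 800 bp apart was 16.3%, 16.1%, 26.0% and 26.6% from the weakest to the strongest quartile. By H3K27ac quartile it was 12.2%, 18.3%, 24.5% and 30.0%. Wider regions leave more room for distant summits, and pairs 300 to 800 bp apart were wider, at 2617 bp for H3K27ac and 2501 bp for H3K4me3 against 1789 and 1687 bp for those within 200 bp. Among the 7654 pairs in which both regions were 1500 bp or wider, 57.7% were within 200 bp, 3.36% over 200 and under 300 bp, and 28.8% from 300 to 800 bp. In these wide pairs the bin from 300 to 324 bp held 46 pairs and that from 450 to 474 bp held 145.

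**Figure D5:**
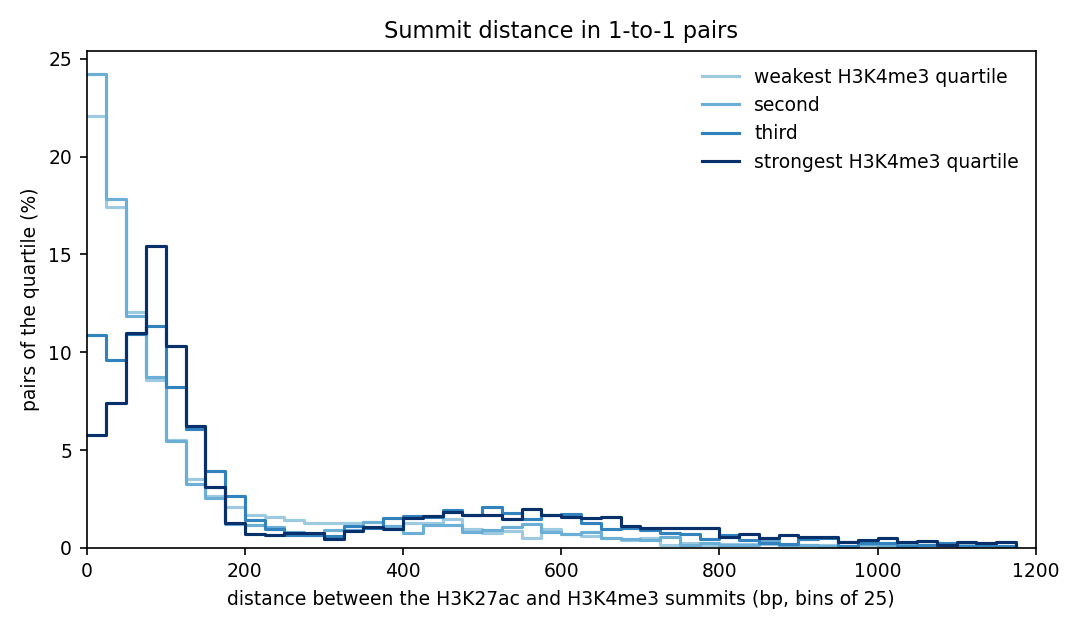
Percent of the 3714 pairs of each H3K4me3 quartile (y axis) by distance between the H3K27ac and H3K4me3 summits in bp, in bins of 25 bp (x axis, drawn to 1200 bp); darker lines are stronger H3K4me3. The 2 weaker quartiles are highest at 0 to 24 bp and the 2 stronger ones at 75 to 99 bp, and the stronger quartiles have more pairs from 300 to 800 bp (26.0% and 26.6%).

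Summits were also placed against the middle of the pair. In pairs 300 to 800 bp apart, the 2 summits were on opposite sides of the centre of the shared part in 1972 of 3159 (62.4%, SD 4.30). In pairs within 200 bp they were in 1709 of 10157 (16.8%, SD 1.35). Points farther apart fall on opposite sides of a centre more often by geometry, so this contrast is largely fixed by the split on distance and is given as a description. The median distance from that centre was 334 bp for H3K27ac and 242 bp for H3K4me3 summits in the first group and 127 and 109.5 bp in the second. Neither mark's summit was favoured on the left or the right, with the H3K27ac summit to the right in 1581 of the 3159 far pairs and 5066 of the 10157 near ones.

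Between far-spaced summits H3K4me1 was scarcer than at the summits. In pairs 300 to 800 bp apart it covered the point midway in 21.9% (interval 20.5 to 23.4%), the H3K27ac summit in 31.7% and the H3K4me3 summit in 29.1%. In near pairs the 3 values were 38.7%, 38.5% and 38.9%. With both regions 1500 bp or wider the far pairs had H3K4me1 midway in 6.80% (interval 5.82 to 7.92%), at the H3K27ac summit in 13.7% and at the H3K4me3 summit in 12.2%. By geometry a point midway can lie nearer the centre of the pair than the summits do, and H3K4me1 was less frequent farther inside H3K4me3 edges. The part of position in this contrast was not tested. The H3K27ac summit was on the side of the longer H3K27ac extension in 67.5% of the far pairs (SD 5.04) and 55.9% of the near ones (SD 2.46), a contrast that the split on distance also sets in part.

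The most distant summits were in broad H3K27ac domains whose strongest point lay well outside H3K4me3. On chromosome 2, H3K27ac at chr2:11491534-11508747 (signal value 30.5) had its summit 9803 bp from that of H3K4me3 at chr2:11502794-11506022 (17.4). On chromosome 12, H3K27ac at chr12:101991724-102004274 (34.6) had its summit 8126 bp from that of H3K4me3 at chr12:101993505-101993850 (1.82), a region 346 bp wide. On chromosome 7, the distance was 7095 bp between H3K27ac at chr7:64457132-64467844 (32.0) and H3K4me3 at chr7:64462608-64467775 (53.2).

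Where 1 region of a mark met several of the other, the 2 directions differed. The 2553 H3K4me3 regions with several H3K27ac regions mostly had exactly 2 (2306, 90.3%). They were 2802 bp wide at the median and at percentile 74.8 of their list. The stronger H3K27ac partner was at a median percentile of 84.7 and 1561 bp wide, and the weaker partners were 515 bp wide. The gaps between the H3K27ac regions were small, 140 bp at the median (interquartile range 89 to 216), and the shortest was 51 bp, the smallest gap in either whole list. The H3K4me3 summit lay in such a gap at 12 of 2836 (0.423%) and inside the strongest partner in 2138 of 2553 (83.7%). H3K4me1 covered 31.2% of the gap bases.

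The 623 H3K27ac regions with several H3K4me3 regions were broad, 5537 bp at the median, and at percentile 92.1 of their list. The strongest H3K4me3 partner was at a median percentile of 52.4 and 1988 bp wide, and the weaker ones were 643 bp wide. The gaps were longer, 463.5 bp at the median, and 229 of 716 (32.0%) were 1000 bp or more. H3K4me1 covered 92.5% of the bases in these gaps. The H3K27ac summit lay inside the strongest partner in 407 (65.3%).

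The extreme of each kind shows the difference. On chromosome 4, H3K27ac at chr4:6748533-6757948 (9416 bp, signal value 17.2) met 5 H3K4me3 regions with signal values of 6.15, 1.74, 7.18, 14.2 and 2.47 from left to right. Its summit was 46 bp from that of the strongest of them. On chromosome 5, H3K4me3 at chr5:142776247-142785755 (9509 bp, signal value 44.4) met 6 H3K27ac regions with signal values of 2.53, 3.58, 2.29, 1.84, 1.58 and 35.9. The last of these, at chr5:142781453-142785650, was 4198 bp wide, had its summit 2068 bp from the H3K4me3 summit, and had 0% of its bases under H3K4me1.

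Chromosomes differed in places. The median log2 width ratio ran from −0.13 on chromosome X to 0.13 on chromosome 21, and H3K4me3 contained H3K27ac in 48.3% of pairs on X, the highest share. H3K4me1 covered 30.1% of shared bases on X and 53.0% on chromosome 20. The deposited −log10 p-values of H3K27ac had a median over pairs of 295 on X and 789 on chromosome 20, the extremes of the 23 chromosomes. They did not follow the width ratio or H3K4me1 throughout, since chromosomes 21 and 22, with the highest width ratios (both 0.13) and with 46.4% and 52.4% of shared bases under H3K4me1, had medians of 427 and 409. For H3K4me3 the lowest median was 494, on chromosome 21, and the highest 2251, on chromosome 20. The part of these values in the chromosome differences was not tested.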

How the data were processed

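The deposited lists hold 1 peak per line for H3K27ac, H3K4me1 and H3K4me3, each pooled over 3 libraries going by the list's name. The submitters' processing notes name MACS2 and hg19. The aligner, the caller's version, settings and threshold, and the use of the control libraries are not given in the sources used here. On the chromosomes kept, the lowest −log10 p-value was 2.00 for H3K27ac, 2.00 for H3K4me1 and 2.03 for H3K4me3, so the lists reach down to weak peaks. Besides positions and summits, the authors deposited for each peak a signal value, whose reference is not stated, a −log10 p-value and a −log10 q-value. The score in the authors' lists is a whole-number form of the −log10 p-value and was not used.

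Peaks on chromosomes 1 to 22 and X were kept as listed, since none overlapped within a list, and paired across lists where they shared at least 1 bp. Ranks, widths, edges, summit distances and H3K4me1 coverage were computed per pair with Python 3.11.15, numpy 2.4.6, pandas 2.3.3 and scipy 1.17.1, and plotted with matplotlib 3.10.9. The pairing was checked against a direct search on simulated data. No test was made, because there is 1 pooled list per mark. Named regions are, among 1-to-1 pairs, the 3 with the highest lower rank, the largest lead of either mark, the most bases past the other mark in either direction and the largest summit distance, and the region of each mark that met most regions of the other. Ranks within 10 points, summit spacings and edge classes were cut after the data had been seen, and the members, lists and rules were chosen with earlier results of these data known. Planned work on gene starts, gene lists and cell type markers was not run, because an hg19 annotation was not used here. Alternative settings were shared bases of at least 50% of the shorter region, autosomes only, omission of chromosomes 20 and X, all pair types, strength by −log10 p-value, peaks no more than 1000 bp apart joined, a cut on the q-value (−log10 of 5 or more), the upper 50% of each list by signal value, and lists cut to the same length. Pairs with both regions 1500 bp or wider, and the same q-value cut on H3K4me1 alone, were added once the data had been looked at.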

Additional observations from a re-analysis of the deposited data

Results flagged for a closer look

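Chromosome Y lay outside the set of chromosomes compared and held 22 pairs, of 22 of its 73 H3K27ac regions and 19 of its 35 H3K4me3 regions. H3K27ac contained H3K4me3 in 4 of them, the summits were within 200 bp in 9, and the median summit distance was 238 bp. With 22 pairs these values were not set against those of the other chromosomes.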

How the results depend on the processing

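No paired analysis was possible because the lists are pooled over the replicates of each mark and hold no value per replicate, and for the same reason no replicate could be left out. Over 16 results and 11 settings, 132 values were computed. Of these, 84 stayed within 1.5 times (counts), within the counting interval (shares of pairs) or within 1 SD over chromosomes (the other values), and 48 moved further. A 50% overlap, autosomes only and leaving out chromosomes 20 and X moved none. With the stronger 50% of each list there were 12926 pairs of 12843 H3K27ac and 11634 H3K4me3 regions, rho was 0.44, the median log2 width ratio −0.12, and H3K27ac was wider in 37.0%. H3K27ac then contained H3K4me3 in 17.6% and was contained in 47.7%, the marks ran past each other by 22 and 304 bp, and the median summit distance was 116 bp, with 63.4% within 200 bp and 24.7% from 300 to 800 bp. H3K4me1 covered 24.8% of shared, 84.0% of H3K27ac-only and 41.6% of H3K4me3-only bases. With an equal number of regions per list, rho was 0.50, H3K4me3 contained H3K27ac in 37.1%, the summit distance was 104 bp with 65.7% within 200 bp and 23.4% from 300 to 800 bp, and H3K4me1 covered 14.5%, 56.2% and 10.9% of the 3 parts. Joining peaks within 1000 bp gave H3K27ac wider in 51.4%, H3K4me3 containing H3K27ac in 36.9%, a summit distance of 104 bp with 65.4% within 200 bp, and H3K4me1 over 71.2% of H3K4me3-only bases. Over all pair types rho was 0.37, the log2 width ratio −0.15, H3K27ac wider in 41.3%, containing in 27.8% and contained in 42.6%, H3K4me3 ran 301 bp past, the summit distance was 127 bp with 57.5% within 200 bp and 22.8% from 300 to 800 bp, and H3K4me1 covered 87.9% of H3K27ac-only and 47.7% of H3K4me3-only bases. A −log10 q-value of at least 5 gave H3K27ac wider in 48.6% and containing in 31.7%, and H3K4me1 over 57.4% of H3K4me3-only bases. With the −log10 p-value as strength rho was 0.65. With both regions 1500 bp or wider the summit distance was 134.5 bp, with 57.7% within 200 bp and 28.8% from 300 to 800 bp, and with H3K4me1 peaks of −log10 q-value 5 or more the H3K4me3-only share was 57.6%; these last settings were added once the data had been looked at. The stronger, equal-number and stricter lists hold fewer H3K4me1 regions by construction, and otherwise the cause of these shifts was not tested. The depth behind the lists is unknown, so a weak mark and a missed one cannot be told apart, and widths and edges depend on where the caller ended each peak.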
